A study of Rubus occidentalis with 14 samples.

Results

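A set of 156 genes of black raspberry (Rubus occidentalis) fruit climbed in 3 successive steps as the fruit ripened. They were chosen from 33253 gene identifiers by their own stage means, so the climb itself is a description and not a finding. For each gene the mean normalised count of each of 5 fruit stages was taken as log2(mean + 10), and stages 3 and 4 were averaged. A gene was taken when its stage 5 mean was at least 100 and each step was at least 0.7 on this log2 scale. The steps ran from stage 1 to stage 2, from stage 2 to stages 3 and 4, and from there to stage 5, and the smallest of the 3 is called the score here. The limit of 200 genes was not reached. All 156 genes also passed the filter used for testing, which 19234 genes passed.

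Poly(A) RNA of fruit was sequenced in 14 libraries, 3 each for stages 1, 2, 3 and 5 and 2 for stage 4. All came from fruit of 1 field-grown black raspberry breeding selection, NC 349, and no treatment other than the stage is named. The titles number the stages and do not describe them further. The library names add the letters Gr, Re, So, Tu and Bl for stages 1 to 5, without spelling them out. The name of stage 2 replicate 1 alone opens with a further letter, t, which is not explained. The stage 4 libraries are numbered 1 and 2 in the titles but 2 and 3 in the library names. Replicate numbers here are those of the titles. The titles call the libraries biological replicates without naming the plants behind them. In stages 1, 2, 3 and 5, replicates 2 and 3 share a code in their titles that replicate 1 does not have, and what the code stands for is not stated, so these pairs may be less independent than n = 3 implies. A p-value here rests on the scatter of these libraries alone, and some of that scatter may be technical. In bulk fruit, a change in the number of cells of a type and a change in RNA per cell cannot be told apart.

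Berries of this kind ripen without the burst of ethylene that drives ripening in tomato, and abscisic acid is regarded as a main ripening hormone in them. Ripening fruit build up anthocyanins through the flavonoid pathway, store sugars, loosen their cell walls with pectin-degrading enzymes and expansins, and make aroma compounds. Genes for such functions are the usual members of rising expression programmes in fleshy fruit. The deposited table gives identifiers only, so which of the 156 genes carry these functions is not stated here. Neither the labelled tissue nor other cell types such as seed could be checked against markers for the same reason. No gene or promoter sequence is shown, because no sequence was used here.

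Depth varied from 7576338 to 39938265 recovered reads per library, and 1 read was worth 0.319 to 2.76 normalised counts. One library matters for which genes make up the set. Stage 2 replicate 2, with 8601064 reads, lay between the other stage 2 libraries and stages 3 and 4 for most of the 156 genes. Applied without that library, the rule kept 120 of the 156 and took 5 others. Of the 36 genes lost, 35 no longer reached 0.7 at the step from stage 1 to stage 2. The main results that rest on this library are given with and without it.

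The 156 genes took a growing part of the RNA. Their share of a library's reads was 0.801%, 0.866% and 0.726% in stage 1 and 2.67%, 3.67% and 2.53% in stage 2 (replicates 1 to 3). It was 7.08%, 9.30% and 6.99% in stage 3, 10.2% and 9.73% in stage 4, and 20.4%, 18.5% and 17.6% in stage 5. No library of one stage overlapped those of the next, also between stages 3 and 4. The genes were chosen for a rise at the other steps, so nothing is read from the order of the share there. A share of this kind does not depend on how libraries are scaled to each other, but the choice of the genes does. The mean share (± SD over 3 libraries) was 0.798% ± 0.0705 at the first stage and 18.8% ± 1.42 at the last. The 120 genes that were also chosen without stage 2 replicate 2 took 0.595% to 0.690% in stage 1 and 13.02% to 15.1% in stage 5.

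**Figure D1:**
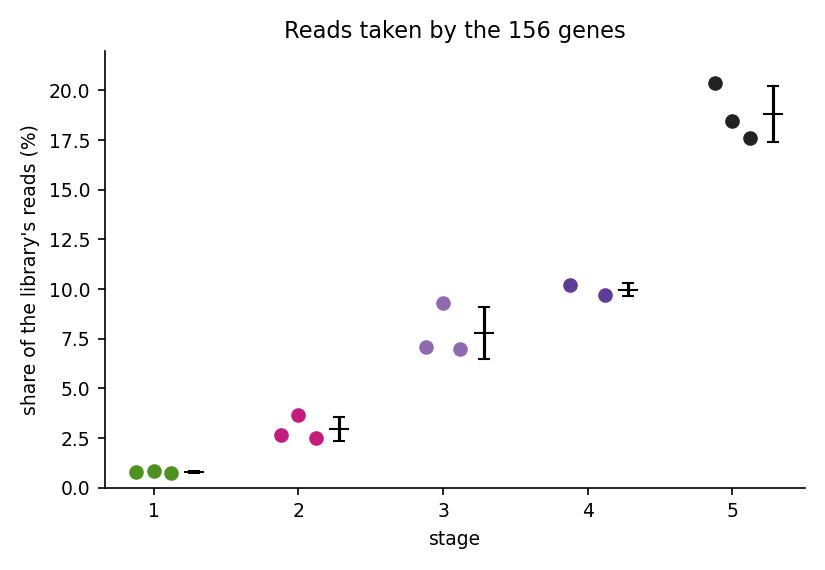
Share of each library's reads, in percent, taken by the 156 genes at stages 1 to 5. Points are libraries, and the bars beside them give the mean ± SD (n = 3, and n = 2 in stage 4). The stage 5 libraries lie at 17.6% to 20.4% and the stage 1 libraries at 0.726% to 0.866%.

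The genes moved from the middle of the expression range towards its top. The median rank of the 156 among all 33253 genes, with 1 the most abundant, was 10122 to 10889 in the stage 1 libraries and 665 to 845 in the stage 5 libraries. In each stage 1 library 1 of them was among the 100 most abundant genes, against 26 to 29 in the stage 5 libraries. Stage means in stage 1 ranged from 0.11 to 8803 normalised counts with a median of 191, and in stage 5 from 146 to 594737 with a median of 5405. In stage 5, 127 genes had a mean of at least 1000 normalised counts and 11 had at least 100000. The reads of the set were unevenly spread at every stage: the 11 most abundant members of each library held 41.4% to 46.5% of them in the stage 1 libraries and 60.9% to 65.2% in the stage 5 libraries.

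**Figure D2:**
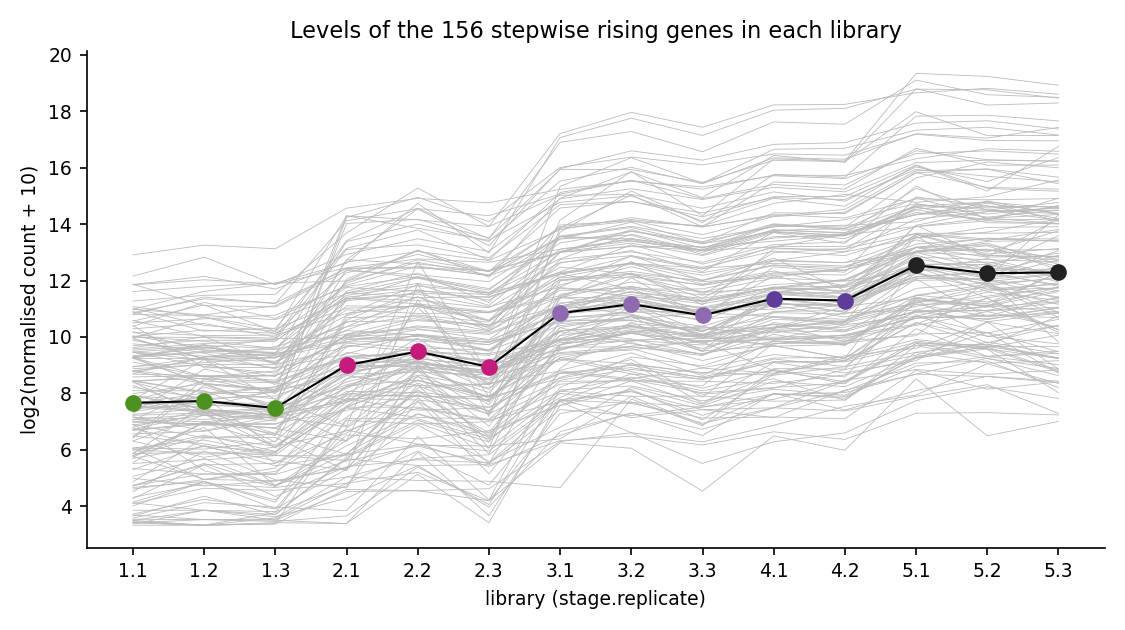
Level of each of the 156 genes in each of the 14 libraries, as log2(normalised count + 10). Grey lines are genes, and the coloured points joined in black are the medians over the genes. The medians run from 7.48 to 7.73 in stage 1 and from 12.26 to 12.54 in stage 5, and stage 2 replicate 2 stands above the other stage 2 libraries.

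The most abundant member at stage 5 was Ro06_G29120. Its normalised counts were 147, 454 and 324 in stage 1, 205, 2100 and 435 in stage 2, and 18063, 59898 and 20164 in stage 3. They were 81454 and 77325 in stage 4 and 667421, 618605 and 498186 in stage 5. The gene went from rank 6162 to 11683 in the stage 1 libraries to rank 2 or 3 in every stage 5 library, and it also had the largest total rise, 10.87 on the log2 scale. Its first step depended on one library: the stage 1 and stage 2 libraries overlapped, and the step of 1.54 became 0.05 without stage 2 replicate 2. Without that library the gene was no longer a member, and its mean was 308 in stage 1 and 320 in the other stage 2 libraries.

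The other leading member by stage 5 level, Ro01_G19766, climbed at every step with or without that library. It stood at 1240, 1415 and 1009 normalised counts in stage 1 and at 10913, 24091 and 11465 in stage 2. In stage 3 it was at 122372, 159804 and 97166, in stage 4 at 202358 and 191017, and in stage 5 at 564855, 394935 and 369976. No library overlapped those of the preceding stage. Its step from stage 1 to stage 2 was 3.65, and 3.18 without stage 2 replicate 2.

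The 2 genes with the highest scores were Ro03_G07437 and Ro07_G33281. Ro03_G07437 was at 47.5, 183 and 168 normalised counts in stage 1, and at 69.5, 2550 and 227 in stage 2. It reached 13431, 37006 and 16987 in stage 3, 55724 and 51849 in stage 4, and 232980, 238288 and 207372 in stage 5. Its stage 2 level was thus high in replicate 2 only, and the first step fell from 2.75 to 0.15 without it, which removed the gene from the set.

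Ro07_G33281 had its early rise in every stage 2 library. It was at 77.5, 355 and 246 normalised counts in stage 1 and at 4228, 8655 and 4437 in stage 2. Levels were 30880, 59145 and 31466 in stage 3, 88866 and 74863 in stage 4, and 456673, 306317 and 321957 in stage 5. The 3 steps were 4.61, 3.32 and 2.65, and without stage 2 replicate 2 the smallest was still 2.65.

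At the threshold the set ended gradually. The lowest scores taken were 0.70 for Ro03_G18182, whose stage means were 375, 617, 998, 1258 and 1983, and 0.70 for Ro02_G01408, with 61.3, 127, 200, 245 and 367. The highest scores not taken were 0.70 for Ro06_G14385, whose stage means were 359, 1257, 2400, 1736 and 4992, and 0.70 for Ro06_G11878, with 110, 249, 1856, 2386 and 3414. All 4 scores round to 0.70, and the 2 left out fell just under it. Scores were below 0.8 in 44 of the 156 genes and below 1 in 97, and 59 genes rose by at least 1 at every step.

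The stepwise genes were a minority of the genes that rose strongly. The smallest total rise among them was 2.32 on the log2 scale, and 1204 genes with a stage 5 mean of at least 100 rose by that much or more. The 156 make up 12.96% of these. Of the 1048 others, 737 stayed under 0.7 at the last step, 361 at the step from stage 1 to stage 2 and 224 at the step between, with some under it at more than 1 step.

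Among the 156, the steps differed in size from gene to gene. The first step had a median of 1.35, the middle one of 1.59 and the last of 1.10 on the log2 scale. The middle step was the largest in 76 genes, the first in 62 and the last in 18, and upper-quartile scaling gave the same order (74, 65 and 17). After quantile normalization the first step was the largest in 99 genes and the middle one in 49 (medians 1.74 and 1.26). With equal total reads it was the first in 83 and the middle in 48 (medians 1.15 and 0.94). Among the 120 genes kept without stage 2 replicate 2, the largest step, computed without it, was the middle one in 57, the first in 47 and the last in 16. The total rise had a median of 4.42 and ran from 2.32 to 10.87. The stage 5 mean was at least 10 times the stage 1 mean in 125 genes and at least 100 times in 39. These folds hold for the deposited scaling. Under it the normalised counts of a library summed to 11223354 to 11645273 in stage 1 and to 27313419 to 27937080 in stage 5.

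**Figure D3:**
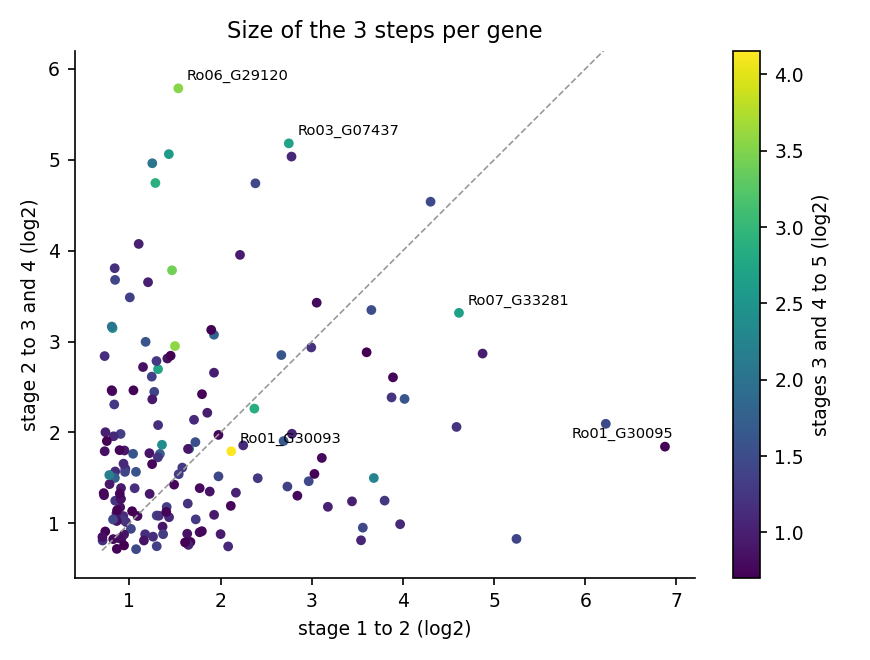
Size of the 3 steps of each of the 156 genes, in log2 units: stage 1 to stage 2 on the horizontal axis, stage 2 to stages 3 and 4 on the vertical axis, and stages 3 and 4 to stage 5 as colour. The dashed line marks equal early steps. Most genes lie near the lower left corner, and Ro01_G30095 and Ro06_G29120 lie at the far ends of the first and the middle step.

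Some members made most of their rise early. In Ro01_G30095, 72.8% of the total log2 rise fell between stages 1 and 2, the largest such share in the set. It stood at 74.9, 304 and 175 normalised counts in stage 1, 19279, 31705 and 17436 in stage 2, and 66048, 85318 and 70404 in stage 3. In stage 4 it was at 92142 and 89249, and in stage 5 at 149563, 128107 and 127074. Every stage 2 library was far above every stage 1 library, and the later steps were smaller, 1.84 and 0.72. Ro02_G04522 came next, with 70.0% of its rise at the first step and stage means of 394, 15297, 26187, 28198 and 72557 normalised counts.

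Others made most of it in the middle. Ro02_G25654 had 65.9% of its rise between stage 2 and stages 3 and 4. It was at 175, 224 and 56.6 normalised counts in stage 1, 247, 571 and 195 in stage 2, and 2608, 6532 and 2895 in stage 3. It stood at 8111 and 8949 in stage 4 and at 13058, 11365 and 10767 in stage 5. Its stage 1 and stage 2 libraries overlapped, and without stage 2 replicate 2 its first step was 0.51 in place of 1.10. Ro04_G36334, with 65.3% at the middle step, showed no first step without that library, with a stage 1 mean of 125 and a mean of 125 in the other stage 2 libraries.

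Few members rose most at the end. Ro01_G30093 had the largest share at the last step, 51.5%. It was at 6.06, 19.3 and 8.61 normalised counts in stage 1, 82.0, 73.5 and 92.1 in stage 2, and 180, 272 and 124 in stage 3. It stood at 399 and 600 in stage 4, and at 6002, 6458 and 4637 in stage 5. No stage overlapped the next, and the first step did not rest on one library (2.12, and 2.19 without stage 2 replicate 2). Ro02_G01332 followed with 48.6% at the last step and stage means of 606, 1047, 2462, 3767 and 13911.

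The most even climb was that of Ro02_G01343, with steps of 0.82, 0.83 and 0.79 on the log2 scale and stage means of 292, 524, 922, 951 and 1626 normalised counts. Its stage 5 libraries lay far apart, at 2512, 1026 and 1342, and the lowest of them was below one stage 3 and one stage 4 library. Ro03_G06468 was nearly as even, with steps of 0.89, 0.83 and 0.82. Its stage means were 486, 912, 1642, 1624 and 2893.

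Because the rule looked at means only, the separation of single libraries is given beside that of all tested genes, and nothing is read from it for the steps that the rule used. From stage 1 to stage 2, every later library was above every earlier one in 133 of the 156 genes, against 24.1% of all tested genes. From stage 2 to stages 3 and 4 this held for 150 (26.3% of all tested genes), and from there to stage 5 for 140 (15.5%). It held at all 3 steps for 119 of the 156 (2.77% of all tested genes), which include 106 of the 120 genes kept without stage 2 replicate 2. From stage 1 to stage 5 it held for all 156 (33.4%).

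Values that the rule did not use come from choosing the genes without a library and then looking at that library. This was done for each of the 14 libraries, and each selection held 125 to 170 genes. A library was counted as in order when it lay above the mean of the stage before and below the mean of the stage after, with stages 3 and 4 joined. Among the genes chosen without it, the held-out library was in order for 87.1% to 100% of genes. Over all tested genes the same held for 22.4% to 47.4%, the higher values being those of stages 1 and 5, which have only 1 neighbour. The neighbouring means were those that the rule had used, so in chosen genes they were in order and at least 0.7 apart. In tested genes they need not be in order, so nothing is read from the gap between these shares. The lowest share among the chosen genes, 87.1% (148 of 170), was that of stage 2 replicate 1, and for stage 2 replicate 2 the share was 100% (125 of 125). Of the 156 genes, 80 were chosen in all 14 of these selections and none in fewer than 8. An alternative added after seeing the data left both libraries that share a title code out of the choice. Each of them was then in order for 94.4% to 100% of the 119 to 178 genes chosen. Over all tested genes the share was 24.5% to 47.4%, with the same limit.

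Within a stage, the members tended to be high in the same libraries. Stage 2 replicate 2 was the highest of the 3 stage 2 libraries in 120 of the 156 genes (76.9%), against 36.1% of all tested genes. Its median lead over the mean of the other 2 was 0.39 on the log2 scale, against -0.0021 over all tested genes. A library that lifts its stage mean helps a gene to pass the rule, so this count is not free of it. Among the 125 genes chosen without that library, it was still the highest in 88 (70.4%), with a median lead of 0.31. Over the 156 genes, its median position was 27.1% of the way from the other stage 2 libraries to stages 3 and 4, with quartiles of 12.5% and 37.9%.

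Stage 3 showed a like order. Replicate 2 was the highest of the 3 stage 3 libraries in 123 of the 156 genes (78.8%), with a median lead of 0.38. The same held for 35.0% of all tested genes and 41.0% of those with a stage 5 mean of at least 100. Among the 167 genes chosen without replicate 2, it was the highest in 134 (80.2%), with a median lead of 0.39. Stage 3 replicate 3 was the lowest in 85 of the 156 genes (54.5%, against 30.2% of all tested genes). In stages 1, 4 and 5 the libraries were closer. Highest most often in stage 1 was replicate 2 (65 genes, 41.7%, median lead 0.07), against 27.6% of all tested genes. In stage 4 it was replicate 1 (90 genes, 57.7%, median lead 0.05), against 42.9%. In stage 5 replicates 1 and 2 were alike (60 genes each, 38.5%), against 29.3% and 34.9% of all tested genes. Both libraries that stood high were the shallowest of their stage, with 8601064 reads in stage 2 and 8597118 in stage 3. The other stage 2 libraries had 30430672 to 39938265 reads. Stage 3 replicate 3, which was the lowest most often, had 10610577 reads, near those of replicate 2, and stage 3 replicate 1 had 34512921. Stage 1 replicate 2 (7576338 reads) and stage 4 replicate 1 (9897285 reads) were also the shallowest of their stages. Stage 5 replicate 2, the shallowest there with 9913885 reads, had a median difference of -0.0049. The part of depth in these orders was not tested.

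**Figure D4:**
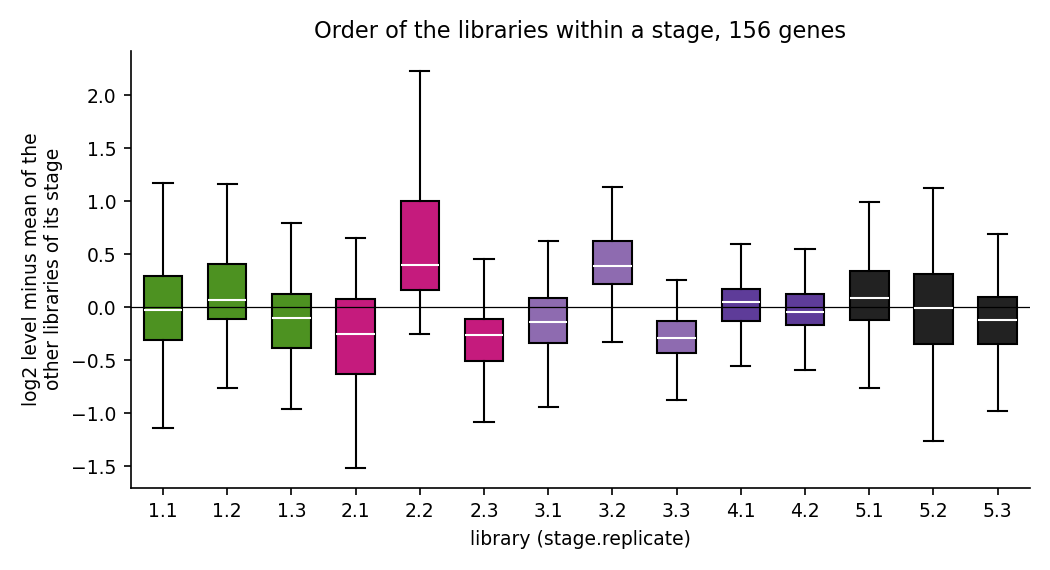
Log2(normalised count + 10) of each library minus the mean of the other libraries of its stage, over the 156 genes. Boxes span the quartiles with the median in white, and whiskers reach the last value within 1.5 box lengths. Stage 2 replicate 2 (median 0.39) and stage 3 replicate 2 (0.38) lie highest.

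The spread of single genes followed this order. The mean SD within a stage, on the log2(normalised count + 10) scale, had a median of 0.29 over the 156 genes. It was 0.21 over all tested genes and 0.18 over those with a stage 5 mean of at least 100. Stage 2 was the widest, with a median SD of 0.32 and a highest one of 3.41. The widest member was Ro06_G28278, with a mean SD of 1.05. It was at 28.3, 3781 and 135 normalised counts in stage 2, and at 15038, 33402 and 15354 in stage 3, so replicate 2 was far above the others in both stages. The next was Ro05_G31334, at 105, 6517 and 395 in stage 2 and 41380, 83963 and 44889 in stage 3. Without stage 2 replicate 2 the first step of Ro05_G31334 was -0.40 and that of Ro06_G28278 was 0.45, so neither remained in the set.

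The tightest members climbed in parallel in every library. Ro06_G07590, with a mean SD of 0.12, stood at 1142, 1050 and 1062 normalised counts in stage 1, 1818, 2206 and 1842 in stage 2, and 4395, 4752 and 3616 in stage 3. It was at 4946 and 5257 in stage 4 and at 10026, 11423 and 11394 in stage 5. Ro02_G34913, with a mean SD of 0.13, started highest of the set, at 7694, 9779 and 8936 in stage 1. It stood at 24260, 30863 and 27678 in stage 2 and at 92996, 99356 and 91628 in stage 5.

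The step from stage 3 to stage 4 was the one between neighbouring stages that the rule averaged over, so it could be tested. No member passed the test: limma called 0 of the 156 genes at an adjusted p below 0.05, where 0.0156% of all tested genes were called (3 of 19234). At an unadjusted limma p below 0.05 there were 24 members (15.4%), against 13.7% of all tested genes in either direction. All 24 were higher in stage 4, as were 6.16% of all tested genes at that level. This share of members moved with the setting. Without stage 2 replicate 2 it was 27.6% (43 members), against 14.4% of all tested genes. With only stages 3 and 4 fitted it was 23.7% (37 members), against 12.4%. With equal total reads it was 9.62% (15 members), against 18.7%. The edgeR quasi-likelihood test called 0 members and 0.0104% of all tested genes, and 23 members and 13.2% of all tested genes had an unadjusted p below 0.05. DESeq2 called 7 members, all higher in stage 4, and 2.14% of the 14725 genes for which it gave an adjusted p. It gave none for 3 members.

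Most of the set had the higher mean in stage 4. The difference was above 0 in 143 of the 156 genes (91.7%), against 49.2% of all tested genes and 61.5% of the 10603 tested genes with a stage 5 mean of at least 100. Its median was 0.35 on the log2 scale over the 156 genes and 0 over all tested genes. Among the 120 genes kept without stage 2 replicate 2 it was above 0 in 108 (90.0%), with a median of 0.32. Every stage 4 library was above every stage 3 library in 78 of the 156 genes, against 17.2% of all tested genes.

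The size of this difference depended on the stage 3 library and on the scaling. The median difference of the stage 4 mean was 0.43 to stage 3 replicate 1, 0.53 to replicate 3 and 0.15 to replicate 2. Without stage 3 replicate 2 limma called 8 members, all higher in stage 4, where 1.91% of all tested genes were called, and the median was 0.48. With libraries scaled to equal total reads the median was 0.12, beside -0.21 over all tested genes. Under that scaling 107 members (68.6%) were above 0, against 25.5% of all tested genes. After quantile normalization the median was 0.18, with 125 members (80.1%) above 0, against 50.5% of all tested genes. The title codes of stage 3 replicates 2 and 3 and stage 4 replicate 2 open with other letters than the rest. Among these 3 libraries 133 members (85.3%) were higher in stage 4 (median 0.37), against 52.1% of all tested genes (median 0.02). Between the other stage 3 library and the other stage 4 library 136 members (87.2%) were (median 0.43), against 45.5% of all tested genes (median -0.02).

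**Figure D5:**
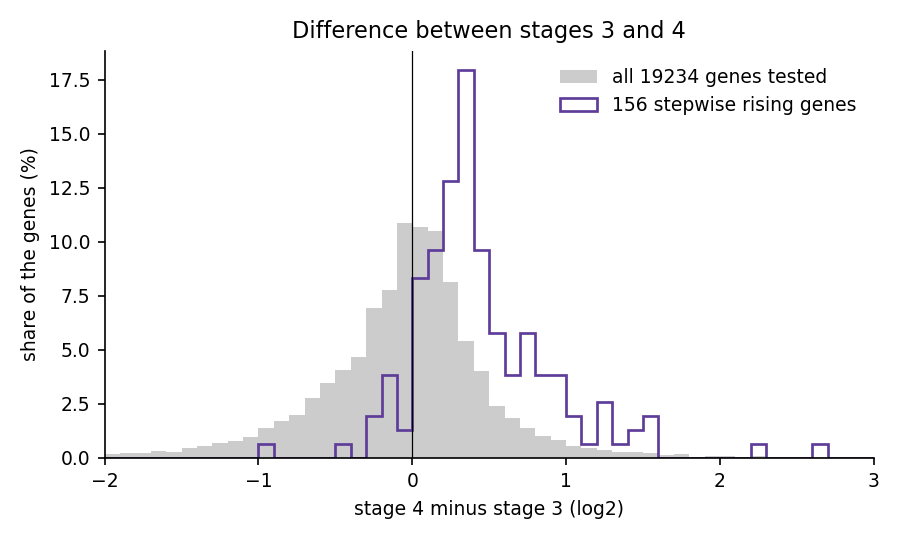
Difference between stage 4 and stage 3 on the log2(normalised count + 1) scale, as the share of genes in bins of 0.1. The grey bars are all 19234 genes tested, and the outline is the 156 stepwise genes; the axis is cropped at -2 and 3, which leaves none of the 156 out. The 156 genes centre on 0.35 and all tested genes on 0.

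By limma on all libraries, the largest difference from stage 3 to stage 4 was that of Ro06_G29131, at 2.68 ± 0.77 (SE) with a limma adjusted p of 0.18. It was at 15.2, 213 and 105 normalised counts in stage 3 and at 460 and 455 in stage 4. Stage 3 replicate 1 was far below the others, and both stage 4 libraries lay above all of stage 3. The gene had 8 reads in all of stage 1, and 2850, 2413 and 3194 normalised counts in stage 5. Without stage 3 replicate 2 it was called, at 3.47 (adjusted p 0.0312 by limma), and without stage 3 replicate 1 the difference was 1.61 and not called. In that fit, and by edgeR (2.21) and DESeq2 (2.06), it was below the difference of Ro01_G00842, which was 2.36, 2.27 and 2.28.

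Ro01_G00842 came closest to the threshold of all members, with a difference of 2.24 ± 0.40 and a limma adjusted p of 0.059. It was at 414, 346 and 297 normalised counts in stage 3, 1258 and 2172 in stage 4, and 2629, 2170 and 5011 in stage 5. The stage 4 and stage 5 libraries just failed to separate, 2172 against 2170. DESeq2 called it, at 2.28 (adjusted p 3.97e-05), and so did limma without stage 3 replicate 2, at 2.23 (adjusted p 0.0333). The gene was not a member without stage 2 replicate 2, where its first step was 0.39.

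A few members had lower values in stage 4. The lowest difference was that of Ro05_G19114, a value of -0.91 ± 0.43 with a limma adjusted p of 0.377. It was at 605, 807 and 898 normalised counts in stage 3, 436 and 373 in stage 4, and 2492, 2187 and 3467 in stage 5, so both stage 4 libraries were below all of stage 3. Ro07_G12303 was next, at 208, 190 and 130 in stage 3 and 133 and 127 in stage 4 (-0.40 ± 0.34, limma adjusted p 0.651), with overlapping libraries.

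The members were spread over all 7 identifier prefixes, Ro01 to Ro07. The prefix Ro02 held 27 of them (17.3%, against 15.1% of all tested genes), Ro01 held 25 (16.0% against 11.6%), and Ro06 held 23 (14.7% against 18.8%). Ro04 held the fewest, 18 (11.5% against 13.4%). In the sorted list of identifiers, 12 members stood in 6 pairs of direct neighbours. Whether neighbouring identifiers are neighbours in the genome, or close copies that share reads, was not tested.

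Such neighbours could differ widely in level, as one pair chosen after its values were seen shows. Ro01_G30096 follows Ro01_G30095 in the list, and Ro01_G30093, described above, is close by. Ro01_G30096 had 0, 0 and 1 reads in stage 1, the fewest of the set, and 127, 127 and 73.3 normalised counts in stage 2. It was at 259, 228 and 229 in stage 3, 201 and 207 in stage 4, and 817, 592 and 461 in stage 5. It thus had its largest step between stages 1 and 2, as Ro01_G30095 had, at a level of 623 ± 180 in stage 5 (SD, n = 3) against 134915 ± 12696. Both levels are per gene and not per length.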

How the data were processed

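The submitters deposited 1 table of normalised values; per the submitters' processing notes, Trimmomatic, HISAT2 and DESeq2 were used, while tool versions, read counter, annotation and genome build were not given in the sources used here. In the deposited file each value is a normalised signal, a read count over its library's size factor. All values (100%) were whole multiples of 1 read within 0.01 read, so whole reads were recovered for edgeR 4.0.16 and DESeq2 1.42.0. On these reads edgeR called 2 genes from stage 3 to stage 4. Genes with at least 10 normalised counts in at least 2 libraries were tested (19234). The limma 3.58.1 model, run in R 4.3.3 on log2(normalised count + 1), held all 14 libraries and let the prior variance follow the mean level. P-values are two-sided and Benjamini-Hochberg adjusted over all genes tested, and calls are at an adjusted p below 0.05. For genes with few reads, a fold change on the log2(normalised count + 1) scale is smaller than the true one.

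The members and all lists were chosen with earlier results of these data known. Genes were named by rank, at most 2 for each end of a quantity: score, stage 5 level, total rise, share of the rise at each step, evenness, the step from stage 3 to stage 4 and spread within stages. Lists of ripening, hormone, cell wall and marker genes could not be matched to identifiers and were not used. Alternatives were other pseudocounts, filters, scalings and tools, a replicate block, a term for title letters, and leaving out each library.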

Additional observations from a re-analysis of the deposited data

How the results depend on the processing

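Reapplied with stage medians, other pseudocounts, other stage 5 minimums, upper-quartile scaling, or stage 3 or stage 4 alone in place of their average, the rule chose 112 to 156 of the 156 genes again. With quantile normalization it chose 84 of them and with equal total reads 53. The median last step was then 0.88 and 0.81, in place of 1.10, and the median middle step 1.26 and 0.94, in place of 1.59. The median first step was 1.74 with quantile normalization and 1.15 with equal total reads, in place of 1.35. Under equal total reads the median total rise was 3.27 in place of 4.42, beside -1.35 over all tested genes, where it was -0.25 as deposited. Each step was still above 0 in at least 150 genes under these scalings. Leaving out single libraries kept 120 to 152. With only the libraries whose title codes open with YH, which was chosen after seeing the data, it kept 143, and without both libraries that share a title code, also added then, 105 (stage 2) to 147. Stage 2 replicate 2 was the highest stage 2 library in 103 to 120 genes under all scalings.

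From stage 3 to stage 4, 0 members were called under every setting except DESeq2 (7) and without stage 3 replicate 2 (8); leaving out single libraries gave 0 to 8. The median difference of 0.35 became 0.12 with equal total reads and ranged from 0.28 to 0.48 without single libraries; the lone stage 4 library left in 2 of these fits is assumed to vary like the other stages. In these 2 stages, deviations from the stage means correlated at r -0.0761 and -0.0876 between libraries with the same title number. Between those with the same library-name number r was 0.0876 and 0.0301, and neither numbering was taken as a pairing. With only 2 libraries in stage 4, their deviations are mirror images, so these values are not independent of each other. Over all stages 9 of 26 pairs with the same title number were over 0.1. Among them were all 3 of stages 1 and 2 (0.39, 0.236 and 0.235), a step for which no test is given. Every pair among the replicate 1 libraries of stages 1, 2, 3 and 5 was also over 0.1, from 0.144 to 0.390. With a replicate block from the title numbers the median was 0.29, and 135 members were above 0, against 49.9% of all tested genes. It called 0 members, with 28 at an unadjusted limma p below 0.05 (14.5% of all tested genes). With a block from the library-name numbers the median was 0.33 and 0 members were called, with 42 at that level (14.7% of all tested genes). Depth limits low levels: 1 read was worth up to 2.76 normalised counts.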
